A study of Mus musculus with 12 samples.

Results

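The MHC and antigen presentation genes described here are 42 protein-coding genes among the 19547 genes of the deposited mouse fat graft table. They were chosen by symbol: 26 symbols begin with H2-, the prefix of the mouse major histocompatibility complex (MHC), and 16 genes were named singly for roles in antigen presentation (B2m, Cd74, Ciita, Nlrc5, Tap1, Tap2, Tapbp, Erap1, Psmb8, Psmb9, Psmb10, Cd80, Cd86, Cd1d1, Mr1 and Calr). The 4 other rows with an H2- symbol are not typed as protein-coding and were left out. RNA was measured in 12 libraries from adipose tissue of wild-type C57BL/6 mice aged 16 weeks, taken 8 weeks after fat grafting, with 4 libraries in each of 3 groups. The CAL_Dll4i grafts (cell-assisted lipotransfer with Dll4 inhibition) received added ASC (adipose-derived stem or stromal cells) while Dll4, a ligand of Notch receptors, was inhibited. The CAL grafts received added ASC without that inhibition, and for the third group the labels say only that these were control grafts. The labels give neither the agent that inhibited Dll4, nor the source of the ASC, nor whether the 4 samples of a group are 4 animals, and p-values here describe the spread between samples, which may be technical.

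Class I molecules, made of a heavy chain and B2m, show peptides from inside the cell to CD8 T cells, and are made by nearly all nucleated cells. Class II molecules show peptides taken up from outside to CD4 T cells and are made mainly by B cells, dendritic cells and macrophages. In fat, class II protein is found mainly on macrophages and other leukocytes of the stroma. Peptides for class I are cut by the proteasome, moved into the endoplasmic reticulum by the TAP transporter and trimmed and loaded there. Ciita switches on class II genes and Nlrc5 switches on class I genes, both through shared promoter elements. C57BL/6 mice have the b haplotype, in which the A molecule is the class II molecule at the cell surface, because the alpha chain gene of the E molecule is not expressed.

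Library totals were 55883051 to 70804141 counts, and all 42 members passed the filter on low counts, as did 18551 genes of the table. The labelled tissue showed adipocyte markers in every library: the summed level of 10 adipocyte genes was 1541.5 to 2030.5 CPM in CAL_Dll4i, 2067.7 to 3010.7 CPM in CAL and 911.2 to 2017.1 CPM in control, where CPM is the count scaled to a common library size after TMM. Skeletal muscle RNA stood out in 3 libraries, where the muscle gene Acta1 had 127 CPM (CAL_Dll4i replicate 3), 74.5 CPM (CAL replicate 2) and 28.1 CPM (CAL replicate 1).

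The members spanned a wide range of levels. Levels between genes may also depend on how the library kit took up each gene, which was not tested. By median deposited TPM (transcript level scaled for length and library size), H2-D1 led at 2345.6 TPM and was the gene of rank 15 in the whole table. H2-K1 followed at 1254.7 TPM, B2m at 1049.3 TPM, Cd74 at 730.0 TPM and Calr at 710.7 TPM. Ranges over the 12 libraries overlapped between these neighbours, except between H2-D1 (2103.2 to 2828.4 TPM) and H2-K1 (1055.9 to 1607.6 TPM). The 3 abundant class II chains came next, H2-Aa at 543.0 TPM, H2-Ab1 at 429.0 TPM and H2-Eb1 at 367.5 TPM, with overlapping ranges. At the low end stood H2-Ob at 5.02 TPM, H2-Eb2 at 3.1 TPM, H2-Q2 at 3.0 TPM, H2-M9 at 1.31 TPM and H2-M5 at 0.214 TPM, the last with 6 to 26 counts per library. The TPM of H2-DMa cannot be set beside the others, because 1 TPM of it stood for 4.52 times as many counts as 1 TPM of its partner H2-DMb1, and its annotated gene overlaps Brd2 on the other strand.

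**Figure D1:**
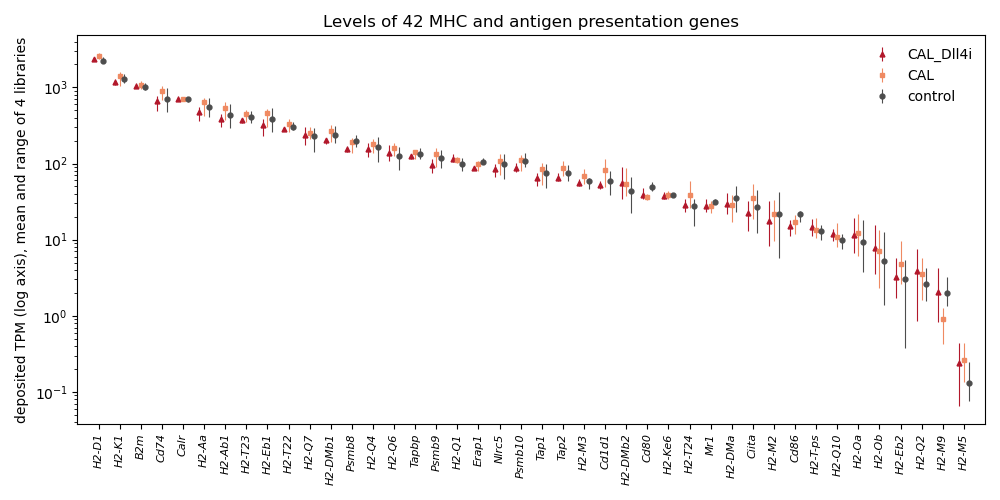
Deposited TPM (log axis) of the 42 genes, ordered by the median of the 12 libraries, with markers for the mean of each group of 4 libraries and lines for its lowest and highest library. H2-D1 stands above every other member and H2-M5 below, and the group markers of most genes lie within each other's ranges.

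No member passed edgeR's quasi-likelihood test at an adjusted p under 0.05 in any comparison, beside 0.0% of the 18551 genes in CAL_Dll4i against CAL, 0.0% in CAL_Dll4i against control, and 1 higher gene (0.00539%) and 0.0% lower in CAL against control. The comparisons share libraries, so they are not independent of each other.

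In CAL_Dll4i against CAL, 14 members had an estimate above 0 and 28 below 0, with a median log2 fold change of -0.15, while 51.3% of all genes tested lay above 0 with a median of 0.0. At an unadjusted p under 0.05, 1 member was higher (H2-M9, background 4.47% of genes) and 2 were lower (Cd1d1 and Tap2, background 2.95%). No member separated the 2 groups without overlap, which 3.34% of genes did. DESeq2 called 0 members (0.00512% of genes) and had 6 at an unadjusted p under 0.05 (8.14% of genes). Limma voom called 0 (0.0% of genes) and had 3 at an unadjusted p under 0.05 (11.0% of genes). The member count at unadjusted p changed with single libraries. It was 16 (9.39% of all genes in that fit) without CAL replicate 2, the lowest CAL library for 31 of 42 members. Of the 16, 15 were lower (4.26% of genes were lower). The count was 9, all lower, once the 3 muscle RNA libraries were left out (10.5% of genes, with 4.59% lower). It was 5 without control replicate 1 (7.74% of genes), 1 without CAL replicate 1 (5.49%), 1 without CAL_Dll4i replicate 2 (5.53%), 0 without CAL replicate 4 (3.81%) and 0 without CAL_Dll4i replicate 4 (4.01%). The 16 were 38.1% of the members and the 9 were 21.4%. None of those fits called a member after adjustment.

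In CAL_Dll4i against control, 19 members lay above 0 and 23 below 0, and the median was -0.01, with 49.6% of all genes above 0. H2-D1 and H2-Q1 were higher (background 3.86% of genes) and Cd80 was lower (background 3.06%) at an unadjusted p under 0.05. No member was without overlap, against 4.77% of genes. DESeq2 called 0 members (0.325% of genes), with 4 at an unadjusted p under 0.05 (7.5% of genes), and voom called 0 (0.0% of genes), with 6 at an unadjusted p under 0.05 (12.4% of genes). Leaving out 1 library moved the edgeR count of 3 to between 0 and 5: it was 0 without CAL_Dll4i replicate 4 (5.69% of all genes in that fit) and 5 without CAL replicate 2 (6.67%). It was 1 without control replicate 2 (5.51%), CAL replicate 3 (6.85%), CAL replicate 4 (7.1%) or CAL_Dll4i replicate 3 (5.31%), and 1 without the 3 muscle RNA libraries (6.39%).

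In CAL against control, 36 members lay above 0 and 6 below 0, with a median log2 fold change of 0.18, while 48.4% of all genes lay above 0 with a median of -0.01. All 10 class II chains and helpers were among the 36, with a median of 0.33, and 7 of these 10 lay below 0 in CAL_Dll4i against CAL, with a median of -0.32. Markers of several cell types moved beside them. In CAL against control, 10 of 10 adipocyte markers lay above 0 (median log2 fold change 0.85, 9 at an unadjusted p under 0.05), as did 9 of 9 B cell markers (0.57) and 6 of 6 of the lymph node stroma and B zone list (0.50), while 5 of 6 keratinocyte markers lay below 0 (-1.75). Skeletal muscle markers lay above 0 in 6 of 6 (4.56, 6 at an unadjusted p under 0.05). Medians were nearer 0 for macrophage markers (8 of 11 above 0, 0.07), dendritic cell markers (6 of 10 above 0, 0.18) and T cell markers (8 of 10 below 0, -0.07). In CAL_Dll4i against CAL, 10 of 10 adipocyte markers (-0.57) and 8 of 10 T cell markers (-0.28) lay below 0. Above 0 lay 7 of 9 B cell markers (0.24) and 5 of 6 keratinocyte markers (2.91). In CAL_Dll4i against control, 10 of 10 T cell markers lay below 0 (-0.35) and 9 of 9 B cell markers above 0 (0.79). Above 0 there were also 9 of 10 adipocyte (0.33), 6 of 6 skeletal muscle (4.91) and 6 of 6 keratinocyte markers (0.93). The keratinocyte sum ran from 4.71 to 495.0 CPM in CAL_Dll4i, 5.69 to 80.3 CPM in CAL and 5.02 to 257.0 CPM in control. None of these markers passed the test, and their part in the values of the members was not tested. Among the members in CAL against control, H2-D1 was higher (background 7.01% of genes) and Cd80 lower (background 7.57%) at an unadjusted p under 0.05. Cd80 and H2-M9 were lower in CAL without overlap with control, which 3.75% of genes were. DESeq2 called 2 members, H2-D1 and Cd80, beside 3.75% of the genes it tested. It had 4 members at an unadjusted p under 0.05 (15.0% of genes). Voom called 0 members (0.388% of genes) and had 3 at an unadjusted p under 0.05 (17.1% of genes). The edgeR count of 2 at an unadjusted p was 8 without control replicate 1 (19.0% of members, 16.9% of all genes in that fit) and 7 without CAL replicate 2 (16.7% of members, 13.5% of genes). It was 4 without control replicate 4 (12% of genes) and 6 once the 3 muscle RNA libraries were left out (14.3% of members, 9.53% of genes), again with 0 called.

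**Figure D2:**
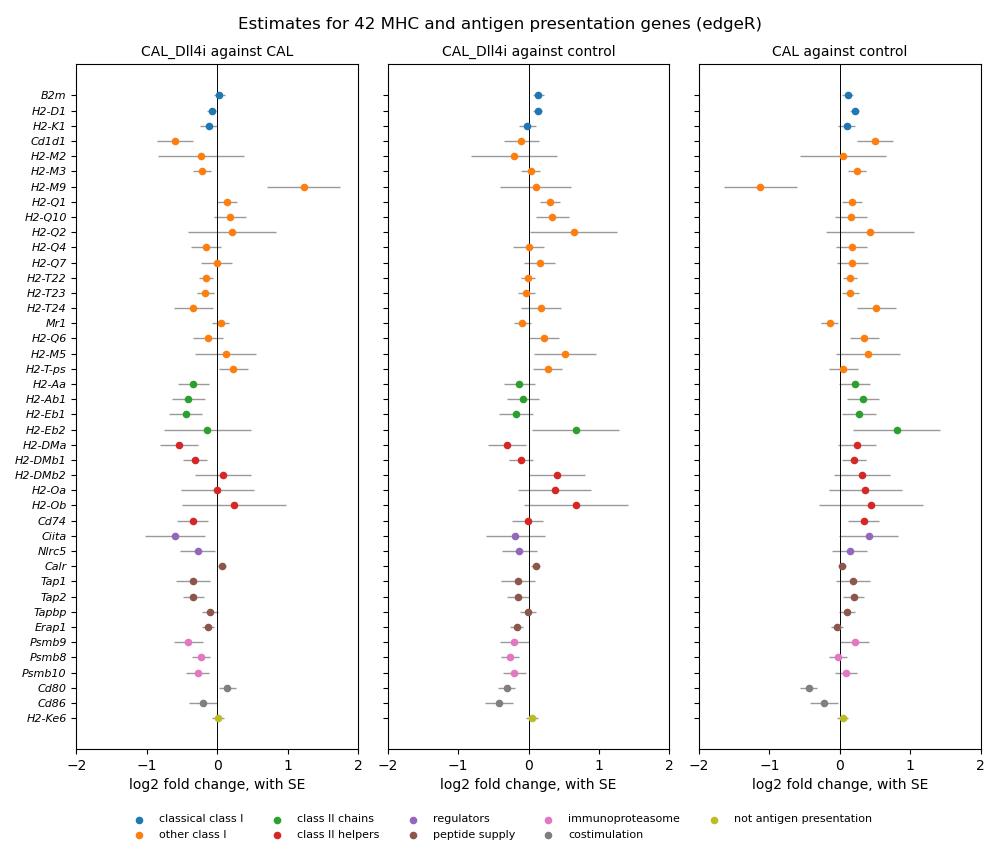
Log2 fold changes with their SE from edgeR for the 42 genes in the 3 comparisons (n = 4 libraries a group), coloured by role. In CAL_Dll4i against CAL 28 estimates lie left of 0, and in CAL against control 36 lie right of 0, while none passed the test at an adjusted p under 0.05.

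The classical class I genes encode the chains present on most cells. H2-D1, a class I heavy chain, had 1763.7, 1685.7, 1775.7 and 1772.0 CPM in CAL_Dll4i, 1962.1, 1762.5, 1858.6 and 1821.8 CPM in CAL and 1783.2, 1578.4, 1499.5 and 1518.6 CPM in control. All 4 CAL_Dll4i and all 4 CAL libraries lay above 3 of the controls, while control replicate 1 lay above every CAL_Dll4i library and within the CAL range. H2-D1 had a log2 fold change of 0.21 ± 0.06 (SE, edgeR adjusted p = 0.184) in CAL against control. DESeq2 gave an adjusted p of 0.0248 for it and voom one of 0.0768, so the difference passed the threshold with DESeq2 and not with the other tools. H2-D1 differed by 0.13 ± 0.06 (log2, SE) in CAL_Dll4i against control, with an edgeR adjusted p of 0.714. H2-K1, the other heavy chain of this strain, had 891.8, 773.4, 968.2 and 951.8 CPM in CAL_Dll4i, 954.4, 774.2, 1058.7 and 1112.1 CPM in CAL and 1040.0, 893.3, 803.9 and 906.5 CPM in control. The groups overlapped, with CAL_Dll4i replicate 2, CAL replicate 2 and control replicate 3 lowest in their groups. H2-K1 stood at -0.12 ± 0.12 in CAL_Dll4i against CAL (log2 fold change, SE, edgeR adjusted p = 0.847). H2-K1 had a log2 fold change of 0.10 ± 0.12 (SE, edgeR adjusted p = 0.729) in CAL against control. B2m, the light chain of class I molecules, had 405.4, 367.5, 367.5 and 433.6 CPM in CAL_Dll4i, 364.9, 349.3, 405.7 and 422.7 CPM in CAL and 393.1, 358.1, 323.3 and 356.6 CPM in control. Its groups overlapped too. B2m differed by 0.03 ± 0.08 (log2, SE) in CAL_Dll4i against CAL, with an edgeR adjusted p of 0.956. B2m stood at 0.11 ± 0.08 in CAL against control (log2 fold change, SE, edgeR adjusted p = 0.558).

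Reads cannot always tell class I genes apart. Of the 50-base words of the H2-D1 transcript, 14.3% also occur in transcripts of other genes, and for H2-K1 8.8% do. At 100 bases the shares are 4.6% for H2-D1 and 0.0% for H2-K1. The longest stretch that the coding sequences of H2-K1 and H2-D1 share without a difference is 91 bases, in exon 4 of each, which encodes most of the domain that binds CD8 and B2m. It is shown with 12 bases on each side (GRCm38, in the sense of the gene), because a read that lies wholly within it fits both of the leading members. Capitals mark the 2 bases that differ. H2-K1 lies at chr17:33997331-33997445 on the minus strand and H2-D1 at chr17:35265899-35266013 on the plus strand.
H2-K1: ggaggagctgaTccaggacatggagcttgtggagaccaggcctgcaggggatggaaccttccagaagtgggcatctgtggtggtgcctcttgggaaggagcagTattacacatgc
H2-D1: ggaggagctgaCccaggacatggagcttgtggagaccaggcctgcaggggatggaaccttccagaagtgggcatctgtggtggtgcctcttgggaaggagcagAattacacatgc

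Promoter windows were at hand for 33 of the 42 members (RefSeq, GRCm38.p6, 250 bases before to 50 after the start). Class I genes are known for a kappa B element and a CCAAT-type Y box upstream of the start. The letters GGGATTNCC, searched on both strands, occurred in H2-D1, H2-K1, H2-Q4, H2-Q6 and H2-Q7, 5 of 33 members (15.2%), against 0.938% of all 32851 windows. The windows of 4 of these are shown from 10 bases before that match, in the sense of each gene, with GGGATTNCC and the Y box letters (TGATTGG, here on the other strand as its complement) in capitals. They lie at chr17:34000319-34000467 (H2-K1, minus strand), chr17:35262914-35263062 (H2-D1, plus), chr17:35424668-35424816 (H2-Q6, plus) and chr17:35439013-35439161 (H2-Q7, plus). A match describes letters and not a bound site, and windows this alike are not separate occurrences to set against all windows.
H2-K1: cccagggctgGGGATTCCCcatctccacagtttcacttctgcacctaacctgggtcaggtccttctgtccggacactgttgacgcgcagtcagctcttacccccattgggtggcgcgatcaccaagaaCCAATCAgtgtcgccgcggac
H2-D1: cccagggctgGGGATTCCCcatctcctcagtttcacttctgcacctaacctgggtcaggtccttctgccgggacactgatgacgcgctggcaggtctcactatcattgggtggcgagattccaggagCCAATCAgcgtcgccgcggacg
H2-Q6: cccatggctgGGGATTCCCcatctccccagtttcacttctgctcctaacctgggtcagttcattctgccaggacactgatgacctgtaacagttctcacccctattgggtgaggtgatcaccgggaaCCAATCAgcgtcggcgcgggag
H2-Q7: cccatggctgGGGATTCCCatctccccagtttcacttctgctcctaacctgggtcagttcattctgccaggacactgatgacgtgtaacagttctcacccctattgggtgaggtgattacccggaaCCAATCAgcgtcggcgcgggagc

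The other class I members, 16 genes, include presenters of special ligands. Cd1d1, which presents lipids to natural killer T cells, had 37.7, 42.9, 47.9 and 37.95 CPM in CAL_Dll4i, 63.9, 39.6, 59.6 and 89.7 CPM in CAL and 60.01, 36.8, 51.4 and 30.04 CPM in control. Only CAL replicate 4 and CAL replicate 1 lay above every library of the other groups. Cd1d1 had a log2 fold change of -0.60 ± 0.25 (SE, edgeR adjusted p = 0.66) in CAL_Dll4i against CAL. Cd1d1 differed by 0.50 ± 0.25 (log2, SE) in CAL against control, with an edgeR adjusted p of 0.386. Neither difference passed the test. Of its 50-base words 25.8% occur in Cd1d2. Mr1, which presents vitamin B metabolites to MAIT cells, had 25.04, 35.1, 29.4 and 29.8 CPM in CAL_Dll4i, 28.1, 23.6, 33.9 and 29.6 CPM in CAL and 29.1, 34.8, 30.1 and 32.8 CPM in control, with overlapping groups. Mr1 stood at -0.14 ± 0.12 in CAL against control (log2 fold change, SE, edgeR adjusted p = 0.628). H2-M3, a presenter of N-formylated peptides, had 36.4, 30.9, 39.3 and 32.2 CPM in CAL_Dll4i, 47.7, 32.8, 42.5 and 38.2 CPM in CAL and 36.6, 34.5, 27.1 and 38.1 CPM in control. CAL replicate 1 was the highest library. H2-M3 had a log2 fold change of 0.24 ± 0.13 (SE, edgeR adjusted p = 0.416) in CAL against control. H2-M3 differed by -0.22 ± 0.13 (log2, SE) in CAL_Dll4i against CAL, with an edgeR adjusted p of 0.744.

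H2-T23 encodes Qa-1, the ligand of the NKG2A receptor, and had 218.1, 188.2, 226.5 and 224.3 CPM in CAL_Dll4i, 240.4, 196.4, 258.6 and 270.1 CPM in CAL and 257.7, 215.6, 181.6 and 217.5 CPM in control. The spread within groups exceeded the differences between them. H2-T23 stood at -0.17 ± 0.12 in CAL_Dll4i against CAL (log2 fold change, SE, edgeR adjusted p = 0.773). H2-Q1 had 137.2, 113.3, 118.6 and 151.2 CPM in CAL_Dll4i, 125.9, 111.8, 116.1 and 119.5 CPM in CAL and 123.6, 125.2, 83.4 and 87.2 CPM in control. Control replicates 3 and 4 were the lowest libraries, below all CAL_Dll4i and CAL libraries, while the other 2 controls lay among them. H2-Q1 had a log2 fold change of 0.31 ± 0.14 (SE, edgeR adjusted p = 0.714) in CAL_Dll4i against control. Of the 50-base words of H2-Q1, 22.9% occur elsewhere, most in H2-Q2.

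H2-Q4, H2-Q6 and H2-Q7 lie close together among the Q genes of chromosome 17. H2-Q4 had 138.8, 90.9, 145.2 and 111.8 CPM in CAL_Dll4i, 150.5, 105.1, 138.3 and 151.4 CPM in CAL and 161.3, 119.6, 75.7 and 129.4 CPM in control. H2-Q6 had 137.5, 93.9, 160.9 and 118.6 CPM in CAL_Dll4i, 154.9, 114.7, 151.2 and 137.7 CPM in CAL and 139.0, 109.9, 70.8 and 118.0 CPM in control. H2-Q7 had 154.1, 109.4, 200.9 and 161.8 CPM in CAL_Dll4i, 180.8, 136.1, 151.6 and 163.4 CPM in CAL and 177.9, 141.4, 87.8 and 152.6 CPM in control. Control replicate 3 was the lowest library for all 3 genes, and the groups overlapped for each. H2-Q6 differed by 0.35 ± 0.21 (log2, SE) in CAL against control, with an edgeR adjusted p of 0.457. Shared 50-base words make up 24.3% (H2-Q4), 32.0% (H2-Q6) and 40.2% (H2-Q7, of which 20.1% of its words occur in H2-Q5). The split of counts among them and with other genes is thus uncertain. H2-Q10, known as a secreted class I chain of the liver, had 8.9, 7.61, 6.26 and 7.34 CPM in CAL_Dll4i, 6.2, 5.15, 10.3 and 4.9 CPM in CAL and 4.46, 6.45, 5.52 and 7.31 CPM in control, with overlap. H2-Q10 stood at 0.34 ± 0.23 in CAL_Dll4i against control (log2 fold change, SE, edgeR adjusted p = 0.767).

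H2-M9 was at the edge of detection, with 1.96, 0.362, 0.474 and 0.971 CPM in CAL_Dll4i, 0.207, 0.521, 0.576 and 0.304 CPM in CAL and 0.659, 0.883, 1.35 and 0.631 CPM in control, which is 12 to 130 counts. CAL_Dll4i replicate 1 was the highest library, and all 4 CAL libraries lay below all 4 controls. H2-M9 had a log2 fold change of 1.23 ± 0.52 (SE, edgeR adjusted p = 0.665) in CAL_Dll4i against CAL. H2-M9 differed by -1.13 ± 0.52 (log2, SE) in CAL against control, with an edgeR adjusted p of 0.35. In CAL_Dll4i against CAL its estimate ran from 0.58 to 1.49 over the alternatives. The remaining members of this set (H2-M2, H2-M5, H2-Q2, H2-T22, H2-T24 and H2-T-ps) had estimates from -0.34 to 0.64 and overlapping groups in every comparison. H2-T22 shares 44.7% of its 50-base words, most with H2-T10, and H2-T-ps is called a pseudogene in its gene name although its row is typed as protein-coding. H2-Ke6, an enzyme gene that carries the prefix for its position only, had 15.8 ± 1.43 CPM in CAL_Dll4i, 15.7 ± 1.08 CPM in CAL and 15.3 ± 0.326 CPM in control (SD, n = 4 each).

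**Figure D3:**
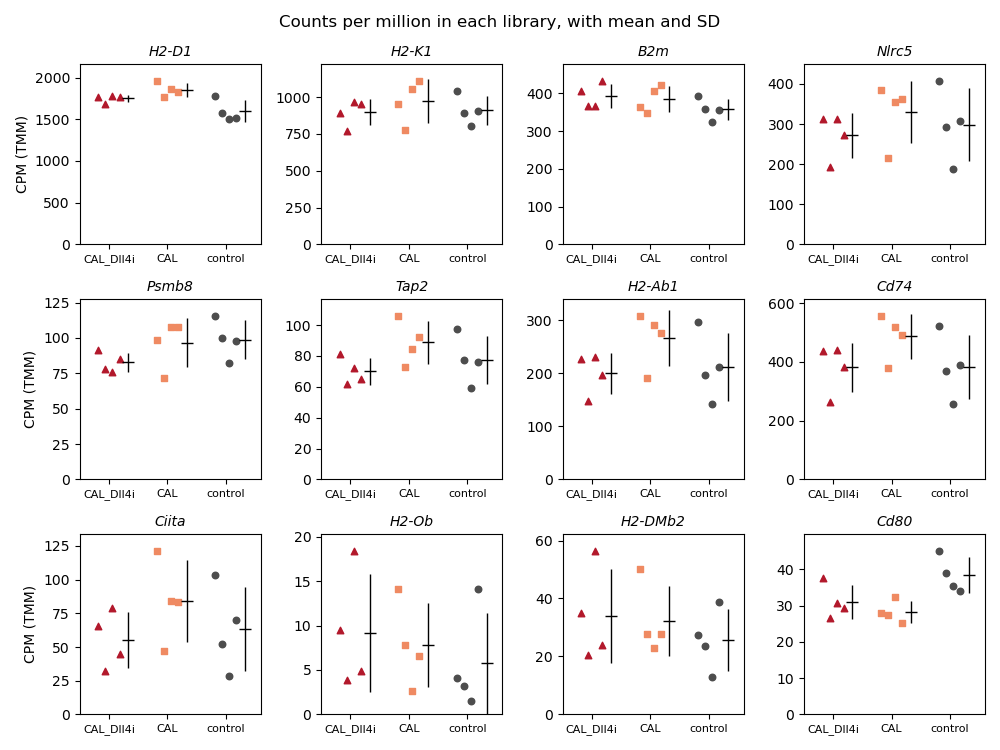
CPM of 12 members in each library (points, replicates 1 to 4 from left to right in each group, axes from 0), with the mean and SD of each group beside them. H2-D1 is lower in 3 of 4 control libraries and Cd80 is lower in all CAL libraries than in control, while for H2-Ab1, Cd74, Ciita and Nlrc5 the range within each group exceeds the differences between the group means.

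Peptide supply to class I depends on transport and trimming in the endoplasmic reticulum. Tap1, a TAP transporter subunit, had 96.9, 61.2, 86.9 and 81.5 CPM in CAL_Dll4i, 120.2, 66.4, 109.3 and 118.0 CPM in CAL and 119.3, 90.6, 56.9 and 96.6 CPM in control. Tap2, the partner subunit, had 81.4, 61.8, 72.0 and 65.2 CPM in CAL_Dll4i, 106.1, 72.9, 84.7 and 92.2 CPM in CAL and 97.6, 77.1, 59.4 and 76.1 CPM in control. For both genes control replicate 3 was the lowest library and CAL_Dll4i replicate 2 the next, and the groups overlapped. Tap2 stood at -0.34 ± 0.15 in CAL_Dll4i against CAL (log2 fold change, SE, edgeR adjusted p = 0.669). Tap1 had a log2 fold change of -0.34 ± 0.24 (SE, edgeR adjusted p = 0.79) in CAL_Dll4i against CAL. Tap2 differed by 0.20 ± 0.15 (log2, SE) in CAL against control, with an edgeR adjusted p of 0.575. None of the 3 differences passed. Tapbp (tapasin), which bridges TAP and class I, had 162.0, 129.1, 153.0 and 153.7 CPM in CAL_Dll4i, 164.6, 132.8, 175.9 and 168.6 CPM in CAL and 176.2, 153.1, 130.1 and 141.1 CPM in control. Tapbp stood at -0.10 ± 0.11 in CAL_Dll4i against CAL (log2 fold change, SE, edgeR adjusted p = 0.862). Erap1, the aminopeptidase that trims peptides, had 203.9, 177.3, 188.0 and 201.1 CPM in CAL_Dll4i, 208.2, 174.5, 229.4 and 230.2 CPM in CAL and 248.3, 208.5, 200.2 and 208.4 CPM in control. Control replicate 1 was highest. Erap1 had a log2 fold change of -0.17 ± 0.09 (SE, edgeR adjusted p = 0.722) in CAL_Dll4i against control. Calr (calreticulin), a chaperone of new heavy chains, had 574.9, 617.3, 570.0 and 629.6 CPM in CAL_Dll4i, 526.7, 595.0, 593.9 and 567.9 CPM in CAL and 546.0, 579.2, 585.9 and 519.7 CPM in control. It was the steadiest of the 5, with 598.0 ± 29.9 CPM in CAL_Dll4i, 570.9 ± 32.0 CPM in CAL and 557.7 ± 30.8 CPM in control (SD, n = 4 each).

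The immunoproteasome subunits replace the standard catalytic subunits of the proteasome in leukocytes and after interferon. Psmb8 had 91.2, 77.9, 76.1 and 85.4 CPM in CAL_Dll4i, 98.9, 71.6, 108.0 and 108.0 CPM in CAL and 115.7, 99.6, 82.3 and 97.5 CPM in control. CAL replicate 2 was the lowest of all libraries, and 3 of the 4 CAL libraries lay above all CAL_Dll4i libraries. Psmb8 differed by -0.26 ± 0.13 (log2, SE) in CAL_Dll4i against control, with an edgeR adjusted p of 0.716. Psmb8 stood at -0.23 ± 0.13 in CAL_Dll4i against CAL (log2 fold change, SE, edgeR adjusted p = 0.738). These differences did not pass the test. Psmb9 had 42.9, 26.5, 39.97 and 35.8 CPM in CAL_Dll4i, 56.4, 32.8, 47.1 and 56.4 CPM in CAL and 52.2, 40.6, 30.7 and 43.4 CPM in control. Psmb10 had 57.2, 40.6, 47.0 and 48.3 CPM in CAL_Dll4i, 65.6, 43.7, 61.8 and 64.05 CPM in CAL and 70.9, 55.0, 46.9 and 48.6 CPM in control. In both, CAL_Dll4i replicate 2 was the lowest library. Psmb9 had a log2 fold change of -0.41 ± 0.21 (SE, edgeR adjusted p = 0.688) in CAL_Dll4i against CAL. Psmb10 differed by -0.28 ± 0.16 (log2, SE) in CAL_Dll4i against CAL, with an edgeR adjusted p of 0.722.

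Set against the standard subunit each replaces, by deposited TPM, the ratio of Psmb8 to Psmb5 was 1.04 ± 0.0769 in CAL_Dll4i, 1.25 ± 0.272 in CAL and 1.18 ± 0.256 in control (SD, n = 4 each). The ratio of Psmb9 to Psmb6 was 0.494 ± 0.126 in CAL_Dll4i, 0.667 ± 0.17 in CAL and 0.62 ± 0.169 in control. For Psmb10 to Psmb7 it was 0.29 ± 0.0392 in CAL_Dll4i, 0.351 ± 0.0715 in CAL and 0.322 ± 0.0716 in control. For all 3 ratios the mean was lowest in CAL_Dll4i and highest in CAL, and the ranges of the groups overlapped.

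Psmb9 and Tap1 are read in opposite directions from starts 226 bases apart, and their promoter windows share 275 bases. The stretch between the starts (chr17:34187330-34187556, GRCm38.p6, plus strand) is shown because it holds the starts of both members. Capitals mark the 1 match to the Y box letters.
Psmb9 to Tap1: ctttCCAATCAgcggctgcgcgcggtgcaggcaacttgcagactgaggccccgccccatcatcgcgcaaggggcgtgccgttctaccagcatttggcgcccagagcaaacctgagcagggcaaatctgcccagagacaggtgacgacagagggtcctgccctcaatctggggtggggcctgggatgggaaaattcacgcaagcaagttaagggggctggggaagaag

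Nlrc5, the activator of class I genes, had 311.4, 192.9, 312.6 and 271.9 CPM in CAL_Dll4i, 386.0, 215.9, 355.8 and 362.0 CPM in CAL and 408.0, 292.1, 186.8 and 306.9 CPM in control. Control replicate 3, CAL_Dll4i replicate 2 and CAL replicate 2 were the 3 lowest of the 12 libraries. Nlrc5 stood at -0.28 ± 0.25 in CAL_Dll4i against CAL (log2 fold change, SE, edgeR adjusted p = 0.843). Nlrc5 had a log2 fold change of 0.14 ± 0.25 (SE, edgeR adjusted p = 0.831) in CAL against control. Neither passed the test. Across the 12 libraries (log2 CPM), Nlrc5 went with Tap1 at r = 0.99 (rho = 0.95, permutation p = 1e-05, the smallest possible, adjusted 3.33e-05) and r = 0.97 without the 2 farthest libraries. Within groups r was 0.97 in CAL_Dll4i, 1.0 in CAL and 1.0 in control (n = 4 each). With Psmb9 it was 0.95 (rho = 0.92, permutation p = 1e-05, adjusted 3.33e-05), and with H2-K1 0.88 (rho = 0.84, permutation p = 0.00026, adjusted 0.000487). Tap1 and Psmb9 thus moved with Nlrc5 from library to library. For H2-D1 it was 0.57 (rho = 0.82, permutation p = 0.0511, adjusted 0.0697) and for B2m 0.55 (rho = 0.48, permutation p = 0.0675, adjusted 0.0881). The rank relation with H2-D1 passed after adjustment (p = 0.00325 by permutation) and its linear one did not. In all, 30 relations were computed and adjusted together, chosen after values had been seen, and the genes of a library share its depth, scaling and cell makeup.

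The class II chains were H2-Aa and H2-Ab1, which form the A molecule, and H2-Eb1 and H2-Eb2, beta chains of the E type. H2-Ab1 had 226.7, 147.0, 231.2 and 195.7 CPM in CAL_Dll4i, 308.2, 190.3, 291.2 and 275.8 CPM in CAL and 295.4, 197.4, 141.9 and 211.4 CPM in control. H2-Aa had 251.1, 168.9, 273.7 and 246.2 CPM in CAL_Dll4i, 296.4, 201.2, 350.2 and 341.1 CPM in CAL and 334.0, 245.2, 187.5 and 262.4 CPM in control. H2-Eb1 had 257.8, 159.5, 279.3 and 231.7 CPM in CAL_Dll4i, 342.7, 217.4, 363.9 and 340.7 CPM in CAL and 361.6, 238.0, 178.0 and 274.3 CPM in control. In all 3, CAL_Dll4i replicate 2, CAL replicate 2 and control replicate 3 were the lowest of their groups, and 3 of the 4 CAL libraries lay above every CAL_Dll4i library. Control replicate 1 lay within the range of those 3 CAL libraries. H2-Ab1 differed by -0.41 ± 0.23 (log2, SE) in CAL_Dll4i against CAL, with an edgeR adjusted p of 0.714. H2-Eb1 stood at -0.45 ± 0.24 in CAL_Dll4i against CAL (log2 fold change, SE, edgeR adjusted p = 0.709). H2-Aa had a log2 fold change of -0.34 ± 0.22 (SE, edgeR adjusted p = 0.763) in CAL_Dll4i against CAL. The 3 differences did not pass the test. H2-Ab1 differed by 0.33 ± 0.23 (log2, SE) in CAL against control, with an edgeR adjusted p of 0.53. H2-Ab1 stood at -0.08 ± 0.23 in CAL_Dll4i against control (log2 fold change, SE, edgeR adjusted p = 0.952).

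Cd74, the invariant chain that guides class II to endosomes, had 436.0, 264.8, 440.9 and 381.3 CPM in CAL_Dll4i, 557.0, 380.5, 518.7 and 491.3 CPM in CAL and 522.5, 368.2, 257.4 and 387.6 CPM in control. The same 3 libraries were the lowest of their groups. Cd74 had a log2 fold change of -0.35 ± 0.22 (SE, edgeR adjusted p = 0.75) in CAL_Dll4i against CAL. Cd74 differed by 0.34 ± 0.22 (log2, SE) in CAL against control, with an edgeR adjusted p of 0.492. H2-DMa and H2-DMb1 form DM, which exchanges the invariant chain remnant for peptide. H2-DMa had 66.5, 35.7, 56.8 and 48.4 CPM in CAL_Dll4i, 89.9, 49.2, 87.5 and 75.97 CPM in CAL and 91.8, 59.1, 40.99 and 63.7 CPM in control. H2-DMb1 had 123.9, 96.7, 122.8 and 116.2 CPM in CAL_Dll4i, 165.8, 103.8, 156.2 and 144.0 CPM in CAL and 162.4, 115.6, 97.8 and 120.0 CPM in control. For both, 3 of the 4 CAL libraries and control replicate 1 lay above all CAL_Dll4i libraries. H2-DMa stood at -0.55 ± 0.27 in CAL_Dll4i against CAL (log2 fold change, SE, edgeR adjusted p = 0.688). H2-DMb1 had a log2 fold change of -0.31 ± 0.17 (SE, edgeR adjusted p = 0.712) in CAL_Dll4i against CAL. H2-DMa differed by -0.30 ± 0.27 (log2, SE) in CAL_Dll4i against control, with an edgeR adjusted p of 0.826. By deposited TPM, however, H2-DMa was highest of its group in CAL_Dll4i replicate 2 (40.5 TPM) and control replicate 3 (49.9 TPM). Its mean was 29.7 TPM in CAL_Dll4i, 28.3 TPM in CAL and 35.3 TPM in control. The higher CPM of H2-DMa in CAL was thus not seen by TPM, and the cause was not tested.

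Ciita, the master activator of class II genes, had 65.8, 32.5, 78.9 and 44.98 CPM in CAL_Dll4i, 121.5, 47.3, 84.2 and 83.5 CPM in CAL and 103.1, 52.2, 28.2 and 69.9 CPM in control. Its range within a group, 28.2 to 103.1 CPM in control, exceeded the difference between group means of 55.5 ± 20.8 CPM in CAL_Dll4i, 84.1 ± 30.3 CPM in CAL and 63.4 ± 31.5 CPM in control (SD, n = 4 each). Ciita stood at -0.60 ± 0.42 in CAL_Dll4i against CAL (log2 fold change, SE, edgeR adjusted p = 0.785). Ciita had a log2 fold change of 0.41 ± 0.42 (SE, edgeR adjusted p = 0.685) in CAL against control. Across libraries H2-Ab1 followed Ciita at r = 0.97 (rho = 0.99, permutation p = 1e-05 for each, adjusted 3.33e-05 and 0.0001) and at 0.94 without the 2 farthest libraries. Within groups it was 0.96 in CAL_Dll4i, 0.96 in CAL and 0.98 in control. H2-Aa, H2-Eb1, Cd74, H2-DMa and H2-DMb1 followed Ciita at r = 0.89 to 0.96 (rho = 0.91 to 0.97), with adjusted permutation p of at most 0.000277, and the values without the 2 farthest libraries were 0.78 to 0.92. These relations used CPM, and for H2-DMa the deposited TPM ordered the libraries differently.

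The other class II helpers ordered the libraries differently from H2-Ab1 in CAL and control, and much the same in CAL_Dll4i. H2-Oa and H2-Ob form DO, an inhibitor of DM found mainly in B cells, and H2-DMb2 is another DM beta chain. H2-Ob had 9.48, 3.89, 18.4 and 4.87 CPM in CAL_Dll4i, 14.1, 7.85, 2.63 and 6.57 CPM in CAL and 4.04, 3.24, 1.51 and 14.1 CPM in control. H2-Oa had 5.87, 3.28, 8.81 and 3.09 CPM in CAL_Dll4i, 9.09, 4.15, 2.78 and 4.97 CPM in CAL and 3.29, 3.47, 1.6 and 7.91 CPM in control. H2-DMb2 had 34.9, 20.4, 56.5 and 23.9 CPM in CAL_Dll4i, 50.02, 27.6, 23.1 and 27.7 CPM in CAL and 27.5, 23.6, 13.02 and 38.9 CPM in control. In each gene CAL_Dll4i replicate 3, CAL replicate 1 and control replicate 4 were the highest libraries of their groups. CAL replicate 3, with 291.2 CPM of H2-Ab1, had the least H2-Ob, H2-Oa and H2-DMb2 of the CAL libraries, and control replicate 1, the control with the most H2-Ab1, was below control replicate 4 for all 3 genes. H2-Ob differed by 0.24 ± 0.74 (log2, SE) in CAL_Dll4i against CAL, with an edgeR adjusted p of 0.962. H2-Ob stood at 0.44 ± 0.74 in CAL against control (log2 fold change, SE, edgeR adjusted p = 0.827). H2-DMb2 had a log2 fold change of 0.32 ± 0.40 (SE, edgeR adjusted p = 0.749) in CAL against control. H2-Eb2 had the same highest libraries, with 4.04, 2.11, 6.05 and 2.5 CPM in CAL_Dll4i, 7.78, 3.2, 1.59 and 3.63 CPM in CAL and 2.16, 1.88, 0.525 and 4.66 CPM in control.

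The sum of 9 B cell markers, among them Ms4a1 and Cd79a, was 191.0, 110.0, 348.6 and 122.2 CPM in CAL_Dll4i, 270.0, 161.1, 111.0 and 155.0 CPM in CAL and 107.1, 114.2, 55.3 and 251.8 CPM in control, so the same 3 libraries were highest. The 6 genes of the lymph node stroma and B zone list, 2 of them also B cell markers, summed highest there too, with 177.2 CPM in CAL_Dll4i replicate 3, 154.4 CPM in CAL replicate 1 and 125.5 CPM in control replicate 4. The 4 genes of that list outside the B cell list gave 106.8, 83.2 and 65.3 CPM in these libraries, the highest of each group, and 16.1 to 71.7 CPM in the other 9. Of the 3, CAL_Dll4i replicate 3 and CAL replicate 1 also carried muscle RNA. The part of lymph node and muscle RNA in the values of these genes was not tested. All 9 markers were in the table, whose lowest count is 1, so none of them could be at 0. H2-Ob followed this sum at r = 0.98 (rho = 0.93, permutation p = 1e-05, adjusted 3.33e-05), at 0.96 without the 2 farthest libraries, and at 0.99 in CAL_Dll4i, 0.96 in CAL and 0.99 in control. H2-Oa, H2-DMb2 and H2-Eb2 did so at r = 0.98, 0.97 and 0.95 (rho = 0.90, 0.92 and 0.92). Against the same sum H2-Ab1 had r = 0.46 (rho = 0.34, permutation p = 0.134, adjusted 0.155), with 0.79 in CAL_Dll4i, 0.18 in CAL and 0.48 in control, and H2-Aa, H2-Eb1, Cd74, H2-DMa and H2-DMb1 had r = 0.31 to 0.52, with adjusted permutation p of at least 0.0983. Against Ciita the 4 genes H2-Ob, H2-Oa, H2-Eb2 and H2-DMb2 had r = 0.54, 0.64, 0.66 and 0.72, with rho = 0.36, 0.50, 0.46 and 0.57 and adjusted permutation p of 0.0109 to 0.091 for r. Without the 2 farthest libraries, CAL_Dll4i replicate 2 and control replicate 3, r was 0.21, 0.39, 0.36 and 0.47, so across the 12 libraries these relations rest on those 2. Within CAL_Dll4i, however, the same 4 genes followed Ciita at r = 0.96, 0.92, 0.97 and 0.95, against 0.22, 0.55, 0.45 and 0.61 in CAL and 0.64, 0.64, 0.79 and 0.82 in control (n = 4 each). Deviations from the group means gave 0.61, 0.69, 0.73 and 0.80. In CAL_Dll4i the 2 orders of libraries were thus not separate, since replicate 3 was highest and replicate 2 lowest for H2-Ab1, H2-Ob and the B cell sum alike. The difference between the 2 sets of r was not tested. H2-DMb1 and H2-DMb2 share 27.2% and 31.3% of their 50-base words, most with each other, so part of each count could belong to the other. In bulk RNA, fewer cells of a type and less RNA per cell cannot be told apart.

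**Figure D4:**
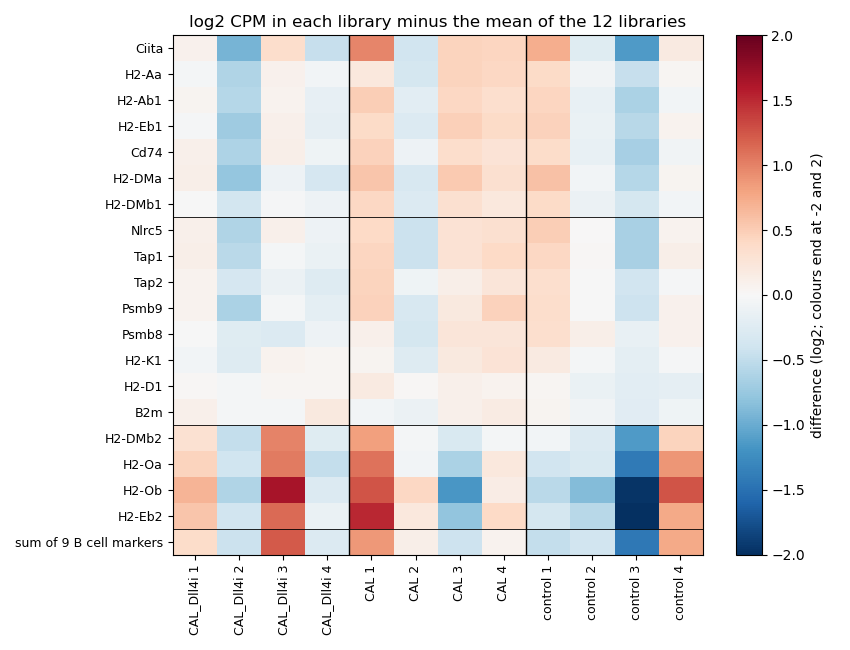
Log2 CPM of 19 members and of the sum of 9 B cell markers in each of the 12 libraries, minus the mean of the 12; colours end at -2 and 2. The upper 2 blocks (Ciita with 6 class II genes, and Nlrc5 with the class I pathway) are mostly low in CAL_Dll4i 2, CAL 2 and control 3, with little range for H2-D1 and B2m, while the lower block and the B cell row are high in CAL_Dll4i 3, CAL 1 and control 4.

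**Figure D5:**
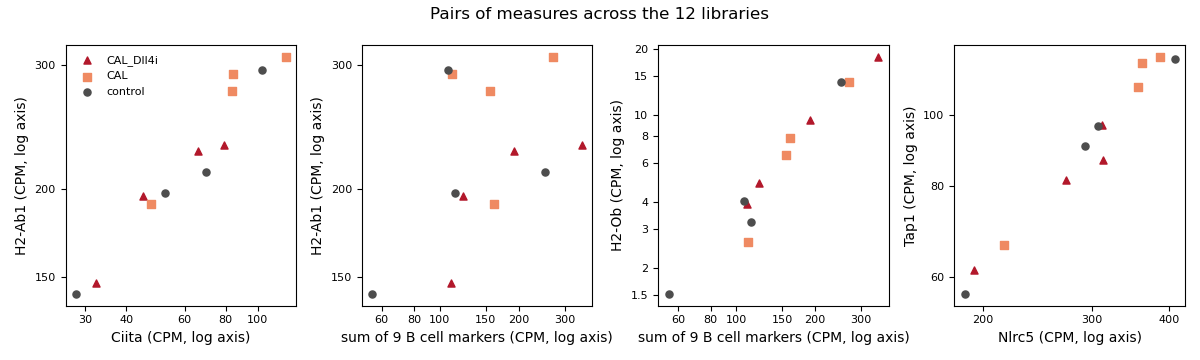
CPM of pairs of measures in the 12 libraries, both axes log. H2-Ab1 follows Ciita (r = 0.97) and less so the sum of 9 B cell markers (r = 0.46), H2-Ob follows that sum (r = 0.98), and Tap1 follows Nlrc5 (r = 0.99), with libraries of all 3 groups mixed along each relation.

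The libraries that were low for Ciita and Nlrc5 were low for most members. CAL_Dll4i replicate 2 was the lowest of its group for 33 of 42 members, CAL replicate 2 for 31 and control replicate 3 for 34. The same 3 libraries had the lowest sum of 6 pan-leukocyte markers in their groups: 1552.5 CPM in CAL_Dll4i replicate 2, where the group's highest was 1799.7 CPM, 1595.0 CPM in CAL replicate 2 (highest 1795.4 CPM) and 1521.9 CPM in control replicate 3 (highest 1746.4 CPM). They were also lowest for the sum of 10 T cell markers, with 201.4 CPM in CAL_Dll4i replicate 2, 273.8 CPM in CAL replicate 2 and 223.5 CPM in control replicate 3. The sum of 10 dendritic cell markers was instead highest there, with 858.0, 788.0 and 817.1 CPM in the same order, but most of it was Itgax, which fat macrophages also express, with 743.3, 651.0 and 671.0 CPM. The other 9 markers summed to 114.7, 137.1 and 146.1 CPM there, which was not the highest of any group. The macrophage sum ran from 3050.7 to 3380.6 CPM in CAL_Dll4i, 3053.9 to 3572.2 CPM in CAL and 3004.6 to 3271.6 CPM in control and followed neither. The part of these cell types in the values of the members was not tested.

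Promoters of class II genes carry an X box and a Y box, a fixed distance apart, on which the factors recruited by Ciita sit. The Y box letters TGATTGG, searched on both strands, occurred in 18 of the 33 members with a window (54.5%), against 7.82% of all windows. The X box letters CNNATGATG occurred in 6 members (H2-DMb1, H2-DMb2, H2-Eb1, H2-Ob, H2-T23 and H2-T-ps, 18.2%), against 2.75% of all windows. Psmb9 and Tap1 are both among the 18, although their windows share 275 bases with 1 match between the starts. The windows of H2-DMb1 and H2-DMb2 are also much alike, so the 18 are not separate occurrences. The 7 class II windows with a Y box are shown from 50 bases before it, in the sense of each gene. They hold members that followed Ciita and members that followed the B cell sum. Capitals mark matches to either set of letters. H2-Aa, H2-Oa and H2-Eb2 had no match to the X box letters, which does not mean that they lack an X box. H2-Aa lies at chr17:34287857-34287923 (minus strand), H2-Eb1 at chr17:34305756-34305822, H2-DMb1 at chr17:34153078-34153144, H2-DMb2 at chr17:34145107-34145173, H2-Oa at chr17:34092284-34092350, H2-Ob at chr17:34238796-34238862 and H2-Eb2 at chr17:34325523-34325589 (plus strand).
H2-Aa: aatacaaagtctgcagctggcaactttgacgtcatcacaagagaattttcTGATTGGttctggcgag
H2-Eb1: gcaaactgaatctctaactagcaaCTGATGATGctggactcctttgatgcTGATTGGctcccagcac
H2-DMb1: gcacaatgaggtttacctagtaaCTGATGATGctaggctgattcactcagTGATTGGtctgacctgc
H2-DMb2: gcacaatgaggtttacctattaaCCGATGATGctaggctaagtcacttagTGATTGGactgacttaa
H2-Oa: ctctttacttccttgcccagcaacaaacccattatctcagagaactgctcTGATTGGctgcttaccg
H2-Ob: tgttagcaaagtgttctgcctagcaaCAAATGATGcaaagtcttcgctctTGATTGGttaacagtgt
H2-Eb2: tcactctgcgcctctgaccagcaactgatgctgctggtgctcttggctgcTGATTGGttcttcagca

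Of the genes that followed Ciita, H2-Aa, H2-Eb1 and H2-DMb1 hold the Y box letters, the window of H2-DMa does not, and H2-Ab1 and Cd74 had no window. Of those that followed the B cell markers, H2-Oa, H2-Ob, H2-DMb2 and H2-Eb2 hold them. The X box letters occur in H2-Eb1 and H2-DMb1, which followed Ciita, and in H2-Ob and H2-DMb2, which followed the B cell markers. The interferon-stimulated response element (ISRE) letters GAAANNGAA occurred in B2m, Erap1, H2-T22 and H2-T23, 4 of 33 members (12.1%), against 8.56% of all windows.

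Cd80 and Cd86 are the costimulatory ligands of CD28 and CTLA-4 on T cells. Cd80 had 37.6, 26.7, 30.6 and 29.3 CPM in CAL_Dll4i, 28.01, 27.5, 32.4 and 25.1 CPM in CAL and 45.1, 38.9, 35.5 and 33.9 CPM in control. Every CAL library lay below every control library, while CAL_Dll4i replicate 1 reached into the control range. Cd80 differed by -0.44 ± 0.12 (log2, SE) in CAL against control, with an edgeR adjusted p of 0.178. DESeq2 gave it an adjusted p of 0.029 and voom one of 0.0983, so here too the call rests on the tool. Cd80 stood at -0.31 ± 0.12 in CAL_Dll4i against control (log2 fold change, SE, edgeR adjusted p = 0.714). Cd80 had a log2 fold change of 0.14 ± 0.12 (SE, edgeR adjusted p = 0.833) in CAL_Dll4i against CAL. Over the alternatives its estimate in CAL against control ran from -0.51 to -0.35 and its adjusted p from 0.029 to 0.507. Cd86 had 19.4, 12.2, 15.5 and 15.4 CPM in CAL_Dll4i, 16.6, 11.9, 21.9 and 21.4 CPM in CAL and 22.7, 22.9, 15.9 and 22.1 CPM in control. The lowest library was CAL replicate 2, and control replicate 3 lay below the other 3 controls. Cd86 differed by -0.42 ± 0.20 (log2, SE) in CAL_Dll4i against control, with an edgeR adjusted p of 0.716. Cd86 stood at -0.22 ± 0.20 in CAL against control (log2 fold change, SE, edgeR adjusted p = 0.638). Cd80 overlaps a lncRNA gene and pseudogenes, and whether counting used strand was not stated in the labels.

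By position, 31 of the 42 members lie on chromosome 17, 3 on chromosome 16 (Ciita, Cd80 and Cd86), 3 on chromosome 8 (Calr, Psmb10 and Nlrc5) and 1 each on chromosomes 1, 2, 3, 13 and 18. The genes that followed Ciita or Nlrc5 across libraries include Cd74 (r = 0.96) and Psmb10 (r = 0.88), which lie outside the MHC region.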

How the data were processed

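Total RNA from 12 adipose samples was made into libraries with a SureSelectXT RNA Direct kit, per the labels' protocols. Reads were processed with HISAT2 and StringTie on mm10, per the submitters' processing notes, whose versions are not given in the sources used here. Whether counting used strand is not stated. The authors deposited whole-number estimated counts per gene, which are not scaled, and beside them TPM values, scaled for length and library, and FPKM values, per the file headers. Counts were rounded, which changed none, and analysed in R 4.3.3 with edgeR 4.0.16: TMM scaling, filterByExpr, and a robust quasi-likelihood test with 1 coefficient per group over all 12 libraries. P-values were adjusted by Benjamini-Hochberg over 18551 genes. TPM served for levels between genes, and FPKM only to learn what the files hold.

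Members, lists and motif letters were chosen with earlier results of these data known. Values per library are given for members by role and for any at an unadjusted p under 0.05. Alternatives were RLE scaling, no filter, DESeq2 1.42.0, voom with sample weights (limma 3.58.1), a fit of the compared groups alone, a block for the replicate number, each library left out, and 3 libraries with muscle RNA left out. 1 B cell marker is not reported here and was left out of its sum. Correlations used 100000 permutations. Shared 50- and 100-base words were counted over GENCODE transcripts (41 of 42 members matched). The test code was tested on simulated data. Python 3.11.15 with matplotlib 3.10.9 drew the figures.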

Additional observations from a re-analysis of the deposited data

Results flagged for a closer look

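In 7 of the 126 groups of 4 libraries looked at, the lowest library stood apart from the other 3. The gap was more than Dixon's 95% critical value for 4 values (on log2 CPM). Chance flags about 1 in 20 independent groups, counting flags at either end. All 7 flags were at the low end and the groups are not independent, so the 7 cannot be judged against that rate. Nlrc5 went with Tap1 at r = 0.99 and with Psmb10 at r = 0.88 across libraries, so flags of these genes are not independent. CAL replicate 2 was that library for 4 genes: Nlrc5 with 215.9 CPM (the others 355.8 to 386.0), Tap1 with 66.4 CPM (109.3 to 120.2), H2-Eb1 with 217.4 CPM (340.7 to 363.9) and Psmb10 with 43.7 CPM (61.8 to 65.6). CAL_Dll4i replicate 2 was low for H2-D1 with 1685.7 CPM (the others 1763.7 to 1775.7) and for H2-T22 with 202.2 CPM (227.0 to 232.2). By deposited TPM, H2-D1 of CAL_Dll4i replicate 2 was at 2345.3 TPM and was not the lowest of its group. Control replicate 3 was low for Cd86 with 15.9 CPM (22.1 to 22.9). CAL replicate 2 carried skeletal muscle RNA (74.5 CPM of Acta1), and the part of that RNA in these values was not tested.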

How the results depend on the processing

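The count of members called at an adjusted p under 0.05 stayed at 0 in all 3 comparisons under RLE scaling, no filter, voom, only the groups compared, the replicate block, each library left out (0 to 0) and the 3 muscle libraries left out. DESeq2 called 2 in CAL against control (H2-D1 at 0.22 and Cd80 at -0.44, log2) and 0 in the other comparisons, and the cause was not tested. With the replicate number as a block, 0 members were called in each comparison, and 5, 3 and 2 had an unadjusted p under 0.05 in CAL_Dll4i against CAL, CAL_Dll4i against control and CAL against control. Deviations of same-numbered samples correlated at -0.39 to 0.14 over 12 pairs, and those of differently numbered samples at -0.31 to 0.44. These values gave no sign that the numbers pair the samples, but they cannot exclude a weak effect of a shared animal, day or batch. Over all settings the median log2 fold change of the members ran from -0.3 to -0.07 in CAL_Dll4i against CAL, from -0.07 to 0.08 in CAL_Dll4i against control and from 0.08 to 0.29 in CAL against control. Of 152 values of single members under an alternative, 150 kept their direction and side of the threshold, 2 gained a call and none changed sign. These values cover only members and comparisons at an unadjusted p under 0.05 by edgeR on all 12 libraries. Estimates chosen that way seldom change sign, so the count does not show how stable the other members are. Counts of H2-M5 and H2-M9 were low, and counts of class I genes with shared sequence limit what their differences can show.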

Other observations

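Other genes of the pathway, in lists chosen for this tissue, also had 0 calls by edgeR in the 3 comparisons. Of 17 interferon gamma pathway genes, 14 lay below 0 in CAL_Dll4i against CAL (median log2 fold change -0.28), 16 in CAL_Dll4i against control (median -0.31) and 11 in CAL against control (median -0.01). Cxcl10, a T cell attractant induced by interferon, had 13.5 ± 6.5 CPM in CAL_Dll4i and 29.2 ± 13.3 CPM in control (SD, n = 4 each), with an edgeR adjusted p of 0.714. Ifngr2, a chain of the interferon gamma receptor, had 62.4 ± 4.88 CPM in CAL and 69.2 ± 3.16 CPM in control, adjusted p = 0.326 in edgeR.

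Of 10 endosomal processing genes tested, 7 lay above 0 in CAL_Dll4i against CAL and 8 in CAL_Dll4i against control. Ctsb, a lysosomal protease, had 1290.2 ± 96.6 CPM in CAL_Dll4i, 1133.5 ± 80.0 CPM in CAL and 1107.5 ± 90.7 CPM in control (edgeR adjusted p = 0.659 and 0.714 for CAL_Dll4i against each). Ctsl, another lysosomal protease, had 631.3 ± 48.9 CPM in CAL_Dll4i and 490.4 ± 49.1 CPM in CAL (edgeR adjusted p = 0.659). Ifi30, a thiol reductase of the endosome, had 228.6 ± 17.6 CPM in CAL_Dll4i and 247.6 ± 3.48 CPM in CAL (edgeR adjusted p = 0.669). Cd63 had 379.1 ± 25.0 CPM in CAL_Dll4i and 332.7 ± 23.6 CPM in control (edgeR adjusted p = 0.714). Of 11 peptide loading helpers, 9 lay above 0 in CAL_Dll4i against CAL and 6 in CAL_Dll4i against control. In the second of these, Pdia3, a partner of tapasin, had 461.4 ± 19.4 CPM in CAL_Dll4i and 416.8 ± 11.9 CPM in control (edgeR adjusted p = 0.706). Canx (calnexin) had 580.2 ± 13.2 CPM in CAL_Dll4i and 539.5 ± 21.3 CPM in control, while Tapbpl, a relative of tapasin, had 21.7 ± 2.96 CPM in CAL_Dll4i and 28.3 ± 5.86 CPM in control (edgeR adjusted p = 0.714 for each).

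Of 12 costimulation partners, 8 lay below 0 in CAL against control. Cd276 had 24.1 ± 4.83 CPM in CAL_Dll4i, 17.0 ± 4.1 CPM in CAL and 26.2 ± 3.65 CPM in control, with an edgeR adjusted p of 0.659 in CAL_Dll4i against CAL and of 0.195 in CAL against control. Tnfsf9, the ligand of 4-1BB, had 3.95 ± 0.465 CPM in CAL and 5.33 ± 0.391 CPM in control (edgeR adjusted p = 0.307). Of 13 receptor genes tested, 10 lay below 0 in CAL_Dll4i against CAL, and Lilrb4a had 668.0 ± 57.9 CPM in CAL_Dll4i and 564.5 ± 51.2 CPM in CAL (edgeR adjusted p = 0.659). The 12 genes of class II gene control and the 9 proteasome partners had medians between -0.07 and 0.05 in the 3 comparisons. Of 10 dendritic cell markers, 3 lay above 0 and 7 below 0 in CAL_Dll4i against CAL (median -0.16). Xcr1 had 5.53 ± 0.828 CPM in CAL_Dll4i and 10.6 ± 4.65 CPM in CAL (edgeR adjusted p = 0.659), and Clec9a had 5.98 ± 1.39 CPM in CAL_Dll4i and 11.0 ± 4.78 CPM in CAL (edgeR adjusted p = 0.659). Itgax, the most abundant of the list, had mean levels of 672.0 CPM in CAL_Dll4i and 593.5 CPM in CAL. Xcr1 and Clec9a mark the dendritic cells that cross-present antigen.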
